A study of Mus musculus with 4 samples.

Results

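The 9 genes described here encode subunits of the Polycomb repressive complexes and were taken by symbol from the transcript table of a *Setd2* knockdown, as *Ezh1*, *Ezh2*, *Eed*, *Suz12*, *Jarid2*, *Cbx2*, *Cbx7*, *Ring1* and *Rnf2*. They account for 9 of the 21945 genes and 19 of the 34200 transcripts that were tested, and all 9 genes had at least 1 tested transcript. NIH/3T3 cells are immortalised mouse fibroblasts. They received 2 *Setd2*-specific siRNAs together (knockdown, KD) or Scrambled siRNA (called wild type, WT), at a final concentration of 10 nM, and polyadenylated RNA was sequenced 48 h later from 2 KD and 2 WT samples. Both groups are the same cell line and were treated with the same transfection reagent, and neither is an untreated control. The labels number the replicates of each group but do not say whether they came from separate transfections, so the spread between samples that enters the p-values may be technical.

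Polycomb repressive complex 2 (PRC2) methylates histone H3 at lysine 27, with EZH1 or EZH2 as the catalytic subunit. EED and SUZ12 are further core subunits, and JARID2 is a cofactor that helps to recruit the complex. Polycomb repressive complex 1 (PRC1) ubiquitinates histone H2A through RING1 or RNF2, and its CBX subunits, among them CBX2 and CBX7, bind methylated lysine 27. SETD2 deposits H3K36me3 over transcribed genes, a mark that hinders PRC2 on the same histone tail, so the mRNA levels of the Polycomb subunits in KD samples bear on how the writers on both sides stood after the knockdown. RNA levels say nothing of the proteins or of the marks, which were not analysed here.

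The level of the targeted transcript was 923 normalised estimated counts in KD samples and 3680.4 in WT samples for *Setd2* (ENSMUST00000153838.7), 74.9% lower in KD. It was the single tested *Setd2* transcript, and 0% of its 31-base words were found in another gene. The median log2(fold change) of all transcripts was −0.011. All 12 fibroblast markers of a fixed list were tested, with summed levels from 2723 (*Pdgfrb*) to 346235 (*Col1a2*) in WT, whereas 3 of 7 epithelial and 5 of 7 endothelial and blood markers were tested, with 387 and 412 counts in all. The deposited values describe the groups and not single libraries. A level is computed from the mean and the effect that the authors deposited, and the spread is the SD between libraries, pooled over both groups (n = 2 each). That spread also shows, for most transcripts, whether both KD samples lay on the same side of both WT samples.

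Only *Ezh2* and *Rnf2* held transcripts that passed the test, and all 3 of these transcripts were lower in KD samples. The call is a q-value under 0.05 in the likelihood ratio test of Sleuth, adjusted over all transcripts. The 3 calls are 15.8% of the 19 transcripts, against 12.5% of all transcripts called in either direction. All 3 were lower and 0 were higher, against 5.21% of all transcripts called lower and 7.26% called higher in KD. The Wald test called the same 3 (18.2% of all transcripts), and limma's moderated test called 2 of them (9.68%). Called transcripts are mostly abundant ones, and of the 7 member transcripts with a mean of at least 1000 counts 2 were called, both lower, against 30.8% of all such transcripts called in either direction and 10.5% called lower. The share of called transcripts was thus near the background, and the median log2(fold change) of the 19 transcripts was −0.020. The libraries of KD and WT lay apart for 13 of the 19 transcripts, against 54.8% of all transcripts, and for 1 member and 11.0% of all transcripts this could not be worked out from the deposited variances.

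**Figure D1:**
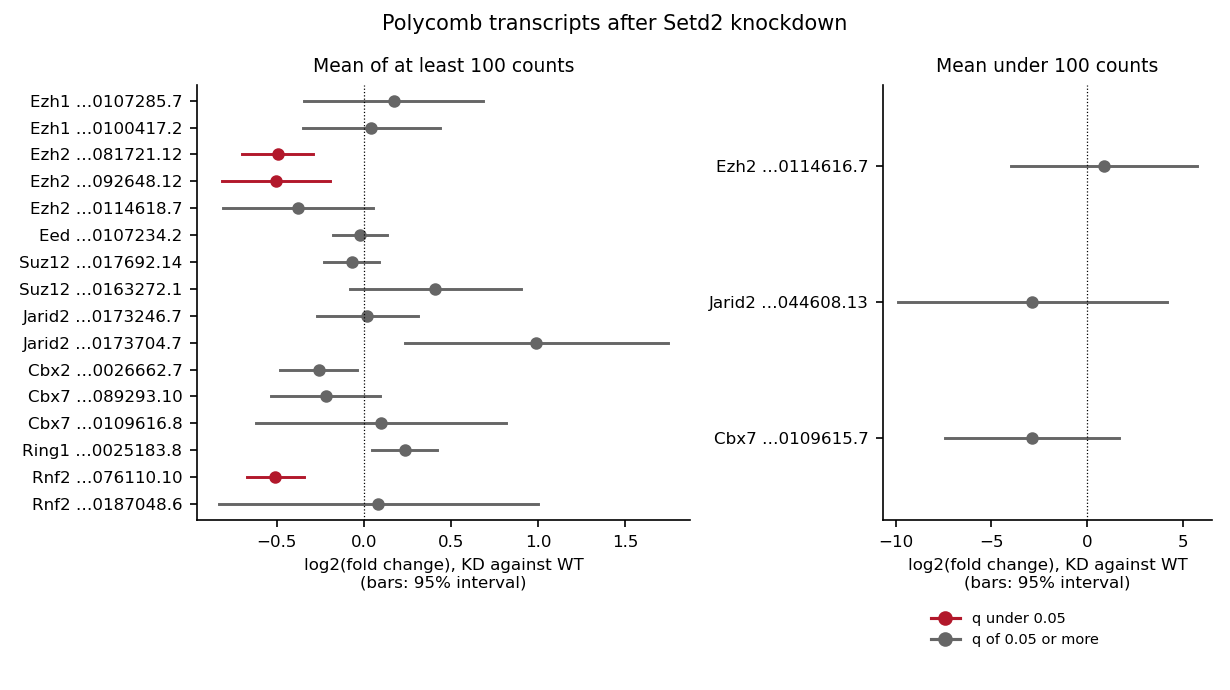
Log2(fold change) of KD against WT for each of the 19 Polycomb transcripts (points) with 95% intervals from the deposited standard errors (bars), labelled by gene and by the last characters of the Ensembl identifier. On the left are the 16 transcripts whose mean reached 100 counts and on the right, on a wider axis, the other 3; red marks the 3 transcripts with a q-value under 0.05, which lie between −0.51 and −0.49.

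*Ezh2*, the methyltransferase subunit that predominates in dividing cells, lies on the minus strand of chromosome 6 (GRCm38, GENCODE M21). Its most abundant isoform, ENSMUST00000081721.12 (47530139 to 47595030, 20 exons), had a level of 2750 counts in WT and 1951 in KD. The log2(fold change) was −0.49 (standard error 0.10, q = 0.0262 in Sleuth's likelihood ratio test), a fall of 29.0% with a 95% interval from 18.2% to 38.5%. The SD between libraries was 0.088 on the log2 scale, and both KD samples were below both WT samples. The isoform ENSMUST00000092648.12, which is annotated with its coding sequence only, had 878 counts in WT and 619 in KD. It fell by 0.50 on the log2 scale (standard error 0.16, q = 0.0468 in the likelihood ratio test), and its KD and WT samples also lay apart. In limma's moderated test, computed from the deposited means and variances, the adjusted p-value was 0.0438 for the first of these isoforms and 0.0508 for the second. The second also missed the threshold (q = 0.121) in a Wald test of effects taken relative to transcripts alike in GC content, in which the first had q = 0.00189. In bulk RNA a lower level in every cell and a level lost from some of the cells cannot be told apart.

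The other *Ezh2* isoforms did not pass the test. ENSMUST00000114618.7, which differs from the main isoform by a shorter and a longer exon, had 510 counts in WT and 393 in KD (log2(fold change) −0.38, standard error 0.22, q = 0.182 in the likelihood ratio test). ENSMUST00000114616.7, which leaves out another coding exon, had 25.2 counts in WT and 47.5 in KD, with a standard error of 2.47 on the log2 scale, of which reassignment of reads between isoforms alone gave an SD of 2.46. The coding sequences of the pair that fell differ by an exon of 126 bases that encodes 42 residues and is left out of ENSMUST00000092648.12, which is also annotated without the 144 bases of 5′ UTR and without the 3′ UTR of the main isoform. The 30 coding bases over that junction are shown because reads across it can tell these isoforms apart (GRCm38, minus strand). In lower case are the last bases of the upstream exon, which ends at position 47542366, and in capitals the first bases of the next one, chr6:47541845-47541970 or chr6:47540677-47540855:
*Ezh2* ENSMUST00000081721.12: tacaactgaaaaaggACGGCTCCTCTAACC
*Ezh2* ENSMUST00000092648.12: tacaactgaaaaaggGTCAAAACCGCTTTC
Of the 31-base words of ENSMUST00000081721.12, 0 were absent from the other tested isoforms, and ENSMUST00000092648.12 had 30 such words (1.44%). The effects of the called pair differed by −0.0089 on the log2 scale (95% interval −0.38 to 0.36), so no shift between them was detectable. The share of ENSMUST00000081721.12 in the summed level of *Ezh2* was 66.0% in WT and 64.8% in KD, and that of ENSMUST00000092648.12 was 21.1% and 20.6%.

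Summed over its 4 isoforms, *Ezh2* had 4164 counts in WT and 3011 in KD, 27.7% lower in KD with a 95% interval from 18.7% to 35.7%. The gene-level q-value, which combines the transcripts and has no direction, was 0.00408. A shared stretch exists with *Gm26625*, a gene that was not tested, and covers at most 3.02% of the words of an *Ezh2* isoform.

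*Ezh1*, the other catalytic subunit, was not called. Its full-length isoform ENSMUST00000107285.7 (chromosome 11, 101191116 to 101226450, minus strand, 21 exons) had 1116 counts in WT and 1258 in KD, with a log2(fold change) of 0.17 (standard error 0.26, q = 0.379 in the likelihood ratio test). The isoform ENSMUST00000100417.2 does not splice after its 15th exon but reads on into the intron and ends there, so that it has 1737 coding bases against 2250. It had 232 counts in WT and 239 in KD (log2(fold change) 0.045, standard error 0.20, q = 0.234), and its share of the summed level was 17.2% in WT and 16.0% in KD. The difference between the effects of the isoforms was −0.13 on the log2 scale (95% interval −0.78 to 0.52). The sequence at the end of that exon (chromosome 11, position 101199258, minus strand) is shown for the spliced form, which continues at chr11:101195519-101195697, and for the form that reads on, with capitals from the first base after the exon:
*Ezh1* ENSMUST00000107285.7: agtgcagcccagactGCCAGAATCGCTTTC
*Ezh1* ENSMUST00000100417.2: agtgcagcccagactGTAAGAGCACCCTGC
In these isoforms 59.0% and 52.7% of the words, respectively, were absent from the other one, far more than in *Ezh2*.

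The summed effects of *Ezh1* and *Ezh2* differed by 0.62 on the log2 scale (*Ezh1* minus *Ezh2*, 95% interval 0.15 to 1.08, with the errors of the genes taken as independent). Per kb of transcript, *Ezh2* was 4.83 times as abundant as *Ezh1* in WT samples and 3.15 times in KD samples. The difference was smaller, 0.44, and its interval included 0 (−0.025 to 0.91) when each effect was taken relative to the median of its GC class, that is, of transcripts alike in GC content. The median of the class was −0.098 for the main *Ezh2* isoform (44.4% GC) and 0.072 for the main *Ezh1* isoform (51.1% GC).

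*Eed* and *Suz12*, the non-catalytic core of PRC2, had nearly equal levels in both groups. *Eed*, whose product binds trimethylated lysine 27 and stimulates the enzyme, was tested as ENSMUST00000107234.2 (chromosome 7, 89954654 to 89980983, minus strand) and had 5313 counts in WT and 5241 in KD. Its log2(fold change) was −0.020 with a 95% interval from −0.17 to 0.13, and KD and WT samples overlapped. *Suz12*, a scaffold of the complex, had 6994 counts in WT and 6665 in KD for its main isoform ENSMUST00000017692.14 (chromosome 11, 79993106 to 80034123, plus strand), a log2(fold change) of −0.070 with a 95% interval from −0.23 to 0.090. The largest fall within the interval of *Eed* was 11.4% and that of *Suz12* 14.7%, both below the smallest fall within the interval of the main *Ezh2* isoform, 18.2%.

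The likelihood ratio q-values of both main transcripts, 0.0843 and 0.0839, look closer to the threshold than these effects. This test lets each of its models estimate its own variance, and the statistic recomputed here in that way differed from the deposited one by at most 2.70e-12. With a single variance it becomes the Wald test, in which the unadjusted p-value of *Eed* was 0.803 in Sleuth's fit, against 0.0173 in the likelihood ratio test. Over all transcripts, 5421 had a log2(fold change) under 0.1 in size, and 1093 of these had an unadjusted likelihood ratio p under 0.05, 0 had a Wald p under 0.05 and 0 had a likelihood ratio q under 0.05. The gene-level q-value of *Suz12* was 0.0395, which made it the third of 9 member genes called at that level beside *Ezh2* and *Rnf2* (q = 0.0252), against 24.0% of all genes. When the smallest transcript p-value was multiplied by the number of transcripts instead, *Ezh2* and *Rnf2* were called and *Suz12* was not.

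The minor isoform of *Suz12*, ENSMUST00000163272.1, leaves out a coding exon of 69 bases (chr11:79999057-79999125), or 23 residues. It had 571 counts in WT and 760 in KD, a log2(fold change) of 0.41 (standard error 0.25, q = 0.205 in the likelihood ratio test). Its share of the summed level was 7.55% in WT and 10.2% in KD. The junctions from position 79995809 on the plus strand into that exon and over it, to chr11:80007513-80007562, read as follows, with capitals after the junction:
*Suz12* ENSMUST00000017692.14: aacaagcatcaaaagGAAAACATTTAAAGT
*Suz12* ENSMUST00000163272.1: aacaagcatcaaaagCTTGTCTGCACATTT
The effects of the isoforms differed by 0.48 with a 95% interval from −0.035 to 1.00, so a change in the use of this exon was not shown. Only 28 words (0.655%) of the minor isoform were absent from the main one. *Suz12* also shares words with *Gm26563*, and 11.3% of the words of *Eed* are shared with *E230029C05Rik*.

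*Jarid2* encodes a cofactor of PRC2 without demethylase activity of its own. Its 3 tested isoforms on chromosome 13 have the same 3702 coding bases and differ in their first exon and in the length of the 3′ end. The main isoform, ENSMUST00000173246.7 (44731271 to 44921643), had 896 counts in WT and 908 in KD (log2(fold change) 0.020, standard error 0.15). ENSMUST00000173704.7, with the shortest 3′ end, had 93.2 counts in WT and 186 in KD. Its log2(fold change) of 0.99 was the largest among the 16 transcripts whose mean reached 100 counts, and its samples lay apart. It did not pass the likelihood ratio test (q = 0.0787), the Wald test (q = 0.0541) or limma's moderated test (adjusted p = 0.0538), but it did pass, with q = 0.0468, when transcripts with a lower mean than 100 were left out before adjustment. The third isoform, ENSMUST00000044608.13, had 40.6 counts in WT and 5.19 in KD with an SD between libraries of 3.58 on the log2 scale, so nothing can be read from it. The effect of ENSMUST00000173704.7 exceeded that of the main isoform by 0.97 (95% interval 0.16 to 1.78, with the errors of the isoforms taken as independent), and its share of the summed level was 9.05% in WT and 16.9% in KD. Only 76 of its words (1.85%) were absent from the other tested isoforms. Reassignment of reads between isoforms alone gave it an SD of 0.33 on the log2 scale, which is already part of its standard error of 0.38. The interval above 0 takes the errors as independent, although isoforms that share most of their words also share reads. How dependent errors would change that interval was not computed, so a shift between isoforms is not established. Summed over isoforms, the level of *Jarid2* was 1030 counts in WT and 1099 in KD, a log2(fold change) of 0.095 with a 95% interval from −0.24 to 0.43.

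**Figure D2:**
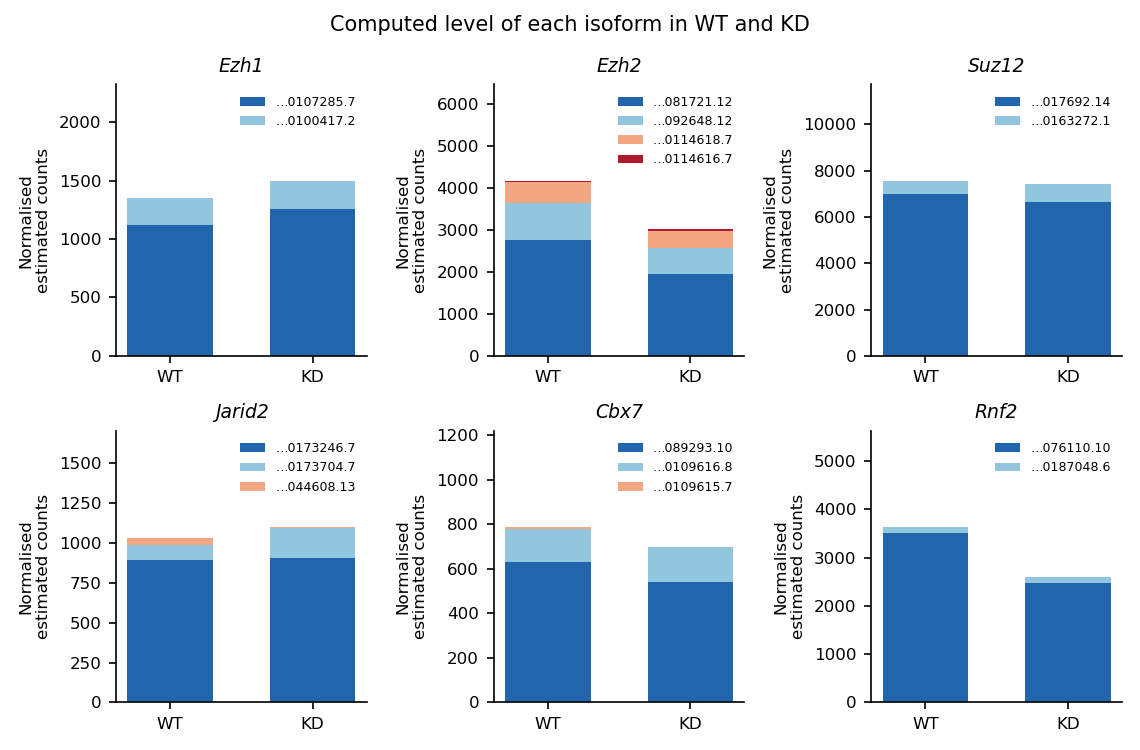
Computed level of each tested isoform in WT and KD, in normalised estimated counts on a linear axis from 0, for the 6 genes with several tested isoforms (colours from the most to the least abundant isoform, labelled by the last characters of the Ensembl identifier). *Ezh2* and *Rnf2* are lower in KD through their most abundant isoforms, and the second *Suz12* and *Jarid2* isoforms take a larger share in KD without passing the test.

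Among the PRC1 genes, *Rnf2*, which encodes the ubiquitin ligase RING1B, fell with the smallest q-value of the 19 transcripts. Its main isoform ENSMUST00000076110.10 (chromosome 1, 151469406 to 151500955, minus strand) had 3516 counts in WT and 2474 in KD. The log2(fold change) was −0.51 (standard error 0.084, q = 0.0172 in the likelihood ratio test, Wald q = 5.84e-08, limma's adjusted p = 0.0357), a fall of 29.6% with a 95% interval from 21.1% to 37.3%. The SD between libraries was 0.070 on the log2 scale, and both KD samples were below both WT samples. The other isoform, ENSMUST00000187048.6, has the same 1008 coding bases and another exon upstream of them. It had 110 counts in WT and 116 in KD, with an SD of 0.47 between libraries on the log2 scale and overlapping groups. The sum over both was 28.6% lower in KD (95% interval 20.0% to 36.2%), and 0% of the words of either isoform were found in another gene.

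*Ring1*, the paralogue of *Rnf2* that encodes RING1A, had a higher level in KD samples and did not pass the test. It was tested as ENSMUST00000025183.8 (chromosome 17, 34020792 to 34024680, minus strand) and had 1600 counts in WT and 1883 in KD. The log2(fold change) was 0.24 (standard error 0.094, q = 0.0817 in the likelihood ratio test, Wald q = 0.0656, limma's adjusted p = 0.187), and both KD samples were above both WT samples. It passed, with q = 0.0486, when only transcripts with a mean of at least 100 counts were adjusted, and relative to *Actb*, a common reference gene that was itself called higher in KD, its log2(fold change) was −0.22. The summed effects of *Ring1* and *Rnf2* differed by 0.72 on the log2 scale, with a 95% interval from 0.47 to 0.97. Per kb, *Rnf2* was 1.46 times as abundant as *Ring1* in WT samples and 0.885 times in KD samples. These genes lie at opposite ends of the GC range of the members, with 60.7% for *Ring1* and 40.4% for *Rnf2*, and the medians of their GC classes were 0.20 and −0.16. After centring on these, the summed effects were 0.031 for *Ring1* and −0.32 for *Rnf2*, and they differed by 0.35 (95% interval 0.10 to 0.60).

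The CBX genes of the list were both lower in KD on average and were not called. *Cbx2* (ENSMUST00000026662.7, chromosome 11, 119022962 to 119031270, plus strand) had 1108 counts in WT and 926 in KD. Its log2(fold change) was −0.26 (standard error 0.11, q = 0.0941 in the likelihood ratio test), with both KD samples below both WT samples. The main isoform of *Cbx7*, ENSMUST00000089293.10 (chromosome 15, 79915810 to 79932639, minus strand), had 629 counts in WT and 540 in KD (log2(fold change) −0.22, standard error 0.16, q = 0.145). The second isoform, with 474 coding bases against 753, had 148 counts in WT and 158 in KD, and the third had 9.68 and 0.888. Both genes are rich in GC, and after centring on GC content the Wald test called *Cbx2* (log2(fold change) −0.46, q = 5.40e-04) and the main *Cbx7* isoform (−0.42, q = 0.0486). Their summed effects differed by 0.090 (*Cbx7* minus *Cbx2*, 95% interval −0.27 to 0.45).

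To set the genes beside each other, the levels were divided by transcript length. In WT samples the order was *Eed* (2570.4 counts per kb), *Suz12* (1732), *Ezh2* (1595), *Rnf2* (1147), *Ring1* (787), *Ezh1* (330.0), *Cbx2* (291), *Cbx7* (250.1) and *Jarid2* (180.0). Of these neighbours, *Suz12* and *Ezh2* did not differ beyond their error (ratio 1.09, 95% interval 0.974 to 1.21), nor did *Ezh1* and *Cbx2* or *Cbx2* and *Cbx7*. In KD samples *Ezh2*, at 1152 counts per kb, was below *Suz12*, at 1701 (ratio of *Suz12* to *Ezh2* 1.48, 95% interval 1.32 to 1.65). *Ring1* (926) then stood above *Rnf2* (819), with an interval of the ratio from 1.00 to 1.28, whereas the other genes kept their place in the order. The lower end of that interval is barely above 1. The order was not recomputed after centring on GC content, which moved the summed effects of *Ring1* and *Rnf2* to 0.031 and −0.32, so this exchange of places is uncertain.

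**Figure D3:**
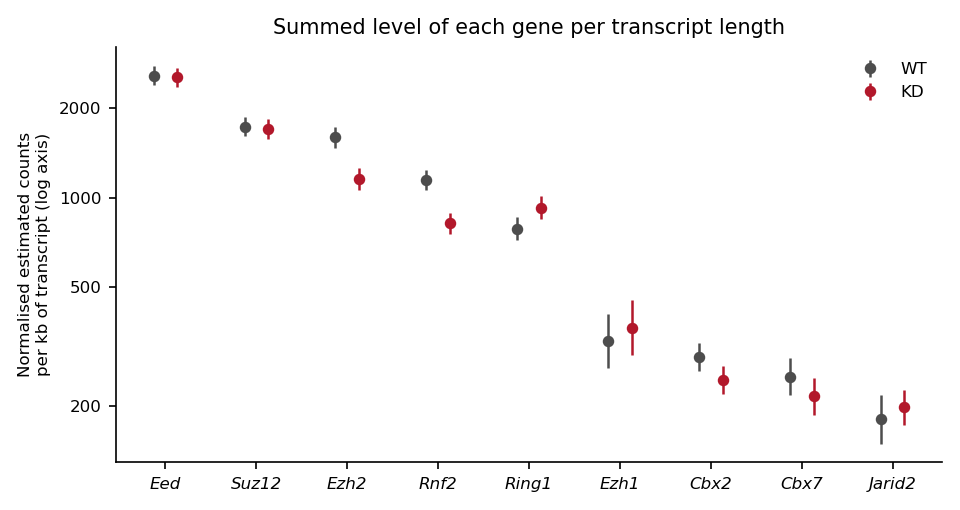
Summed level of each gene in WT (grey) and KD (red) in normalised estimated counts per kb of transcript, on a log axis and ordered by WT, with 95% intervals computed from the deposited standard errors (bars). *Ezh2* and *Rnf2* are the genes whose KD interval lies below their WT interval, and *Rnf2* crosses *Ring1* in these levels, which are not centred on GC content.

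The other genes of the Polycomb system were taken from lists by role. Of the genes listed here as PRC2 accessory subunits, 8 of 10 were tested, with 18 transcripts. Of these transcripts 2 were higher and 2 were lower in KD, 22.2% in all against 12.5% of all transcripts. The median log2(fold change) was −0.012, as for all transcripts. *Rbbp7*, a histone-binding subunit that also belongs to other chromatin complexes, fell in both of its main isoforms. ENSMUST00000033720.11 had 9051 counts in WT and 5291 in KD (log2(fold change) −0.77, standard error 0.092, q = 0.0120 in the likelihood ratio test), and ENSMUST00000112327.7 had 3046 and 1417 (−1.10, standard error 0.25, q = 0.0330). The third isoform, ENSMUST00000112326.7, had 794 counts in WT and 848 in KD and was not called. Up to 21.8% of the words of an *Rbbp7* isoform are found in other genes. The largest overlaps were with *Gm6382* (339 words), which was not tested, and with *Txlng* (144 words), which was. *Rbbp4*, the paralogue of *Rbbp7*, had 20114 counts in WT and 19356 in KD and was not called.

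*Aebp2*, a zinc finger cofactor of PRC2, rose in 2 of its 5 isoforms, ENSMUST00000032359.14 (1577 counts in WT and 2227 in KD, log2(fold change) 0.50, q = 0.0202) and ENSMUST00000160836.7 (303 and 683, 1.17, q = 0.0175). Its most abundant isoform had 3129 counts in WT and 3017 in KD, and the summed level was 9.05% higher in KD. The Tudor domain proteins PHF1, MTF2 and PHF19, which bind H3K36me3 and link PRC2 to it, had no called transcript. *Phf1* had 2624 counts in WT and 3151 in KD (q = 0.0557, and 0.0144 in the Wald test), *Mtf2* had 3097 and 3140.4, and *Phf19* had 168 and 198. The gene-level likelihood ratio q-values were 0.0382 for *Phf1*, 0.0866 for *Mtf2* and 0.181 for *Phf19*, and 24.0% of all genes were called at that level.

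Of the other PRC1 subunits, 23 of 24 genes were tested with 57 transcripts, of which 7 were higher and 1 was lower in KD. These are 14.0% of the list, near the background of 12.5%, which divides into 7.26% higher and 5.21% lower. Of the 41 with a mean of at least 100 counts, 7 were called, against 4030 of all 18808 such transcripts. The median log2(fold change) of the list was 0.15 over all 57 transcripts and 0.089 over those with a mean of at least 100 counts, against 0.048 for all transcripts above that limit. *Pcgf3*, a RING finger partner of RING1 and RNF2 in variant PRC1, rose from 3244 to 5361 counts (ENSMUST00000046975.11, log2(fold change) 0.72, standard error 0.081, q = 0.0109). *Pcgf5*, another partner of the same kind, had a called isoform with 674 counts in WT and 1059 in KD (ENSMUST00000062389.5, 0.65, q = 0.0396), but 0 of its words were absent from the other isoforms and the summed level of the gene was 13.5% higher. A *Phc3* isoform (ENSMUST00000129817.8) was called at 0 in WT and 99.0 in KD (q = 0.0442 in the likelihood ratio test), again with 0 words of its own. The summed level of *Phc3* was 11.9% lower in KD. The other higher calls, with smaller rises, were in *Phc2* (log2(fold change) 0.60, q = 0.0115), *L3mbtl2* (0.48, q = 0.0176), *Scmh1* (0.44, q = 0.0194) and *Dcaf7* (0.24, q = 0.0401). *Scml2* held the lower transcript (ENSMUST00000019101.10, 334 counts in WT and 181 in KD, −0.88, q = 0.0397).

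The PR-DUB complex removes ubiquitin from histone H2A and so counters PRC1. All 10 listed genes were tested with 19 transcripts, of which 3 were higher and 0 were lower in KD, 15.8% against 12.5% of all transcripts called in either direction and 7.26% called higher. Of the 16 with a mean of at least 100 counts, 3 were called, against 4030 of all 18808 such transcripts, so the share was near the background. The called ones were transcripts of *Bap1*, the deubiquitinase (4035 counts in WT and 5565 in KD, log2(fold change) 0.46, q = 0.0158), *Ogt*, a glycosyltransferase (7973 and 10721, 0.43, q = 0.0194), and *Hcfc1*, which OGT cleaves (4722 and 6506, 0.46, q = 0.0200). The median log2(fold change) of this list was 0.35, and it was 0.38 over the 16 of its transcripts whose mean reached 100 counts, of which 12 were positive, against 10297 of all 18808 transcripts above that limit. By the Wald q-values 7 were higher and 1 was lower, against 18.2% of all transcripts called in either direction. Relative to *Actb*, however, 0 were higher and 6 were lower, a setting for which the share of all transcripts was not computed. Of the genes that erase the Polycomb marks, *Kdm6a*, *Kdm6b*, *Usp16*, *Usp21* and *Mysm1*, 0 of 9 transcripts were called by the likelihood ratio test, by the Wald test or by limma. Over all transcripts these tests called 12.5%, 18.2% and 9.68%. An unadjusted likelihood ratio p under 0.05 was found for 2 of the 9, against 11615 of all 34200 transcripts.

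**Figure D4:**
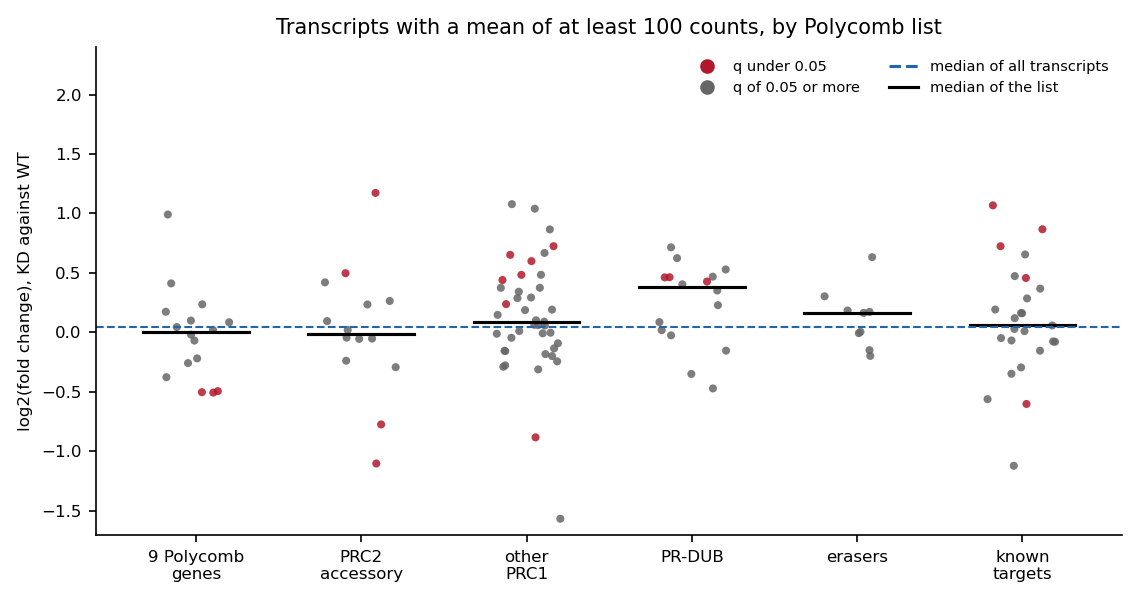
Log2(fold change) of each transcript with a mean of at least 100 counts (points, red for a q-value under 0.05) in the 9 Polycomb genes and 5 further lists, with the median of each list (black line) and of all tested transcripts above that limit (dashed line, 0.048). The PR-DUB list has the highest median, 0.38, and the called transcripts of the 9 genes all lie below 0.

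The last list held genes known as Polycomb targets in other cells. Of 46 listed genes, 27 were tested, and *Cdkn2a*, *Cdkn2b* and *Cdkn1c* were among those that were not. Of their 44 transcripts 4 were higher and 1 was lower in KD, 11.4% in all, close to the background, and the median log2(fold change) was 0.033. Of the 25 with a mean of at least 100 counts, 5 were called, against 4030 of all 18808 such transcripts. *Sox9*, a regulator of cartilage development, rose from 1414 to 2965 counts (1.07, standard error 0.094, q = 0.0103). An isoform of *Gata4* (ENSMUST00000067417.9, 398 counts in WT and 726 in KD, 0.87, q = 0.0301), *Foxc2* (498 and 824, 0.72, q = 0.0223) and *Tbx15* (2785 and 3823, 0.46, q = 0.0170) also rose, while *Foxc1* fell (933 and 615, −0.60, q = 0.0269). Only 1.60% of the words of that *Gata4* isoform were absent from the other tested ones. Summed over its 3 isoforms, *Gata4* had 551 counts in WT and 1098 in KD. These transcription factor genes were picked from general knowledge, and whether any of them carries the Polycomb marks in NIH/3T3 cells was not tested.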

How the data were processed

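RNA-seq of 2 KD and 2 WT samples, grouped by the condition in their labels, was analysed. The authors removed adapters with BBDuk, estimated transcript counts with Kallisto (0.44.0) and passed them to Sleuth (0.30.0), where KD was tested against WT without covariates. The build named in the submitters' notes is GRCm38, and the filter on low counts is not given in the sources used here. The deposited means, effects and standard errors are on the natural log scale of normalised estimated counts plus 0.5. The authors also deposited variances, the likelihood ratio score, p-values and q-values for transcripts, and gene-level p-values and q-values. The deposited tables hold the comparison itself and no columns for single libraries, so these values are the authors' and the depth of each library is unknown.

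Levels are the exponential of the mean plus or minus 0.5 times the effect, minus 0.5. To obtain log2 values, effects on the natural log scale were rescaled. The residual sum of squares is 3 times the variance minus the squared effect. Since each group has 2 libraries, the groups lie apart whenever the effect exceeds its square root. Intervals (95%) use the deposited standard errors, and those of sums, differences and ratios take the errors of isoforms and genes as independent. A standard error combines the variance between libraries, in part smoothed over transcripts by Sleuth, with that of read assignment. It can therefore exceed the SD between libraries, as for *Eed* (0.079 against 0.041 on the log2 scale). limma (3.58.1) was run on the same values with a trend and tested on simulated data. Annotation and sequences are from GENCODE M21 (GRCm38), with 98.6% of transcripts matched by identifier and version, and 31-base words were compared with all its transcripts. Members, lists and tests were chosen with earlier results of these data known. Named are all member transcripts, *Setd2* and the called transcripts of each list (at most 3 in each direction where over 6 were called). *Actb*, *Rbbp4*, *Phf1*, *Mtf2*, *Phf19*, *Phc2*, *L3mbtl2*, *Scmh1*, *Dcaf7* and the eraser genes were named after their values were seen.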

Additional observations from a re-analysis of the deposited data

How the results depend on the processing

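The *Setd2* fall and the calls of the main *Ezh2* and *Rnf2* isoforms kept their direction and their side of the threshold under every alternative that was tried. The number of member transcripts called moved from 3 to 5 when only transcripts with a mean of at least 100 counts were adjusted and to 9 relative to *Actb*, which itself rose by 0.46 on the log2 scale (q = 0.0310 in the likelihood ratio test), so that the median summed effect of the 9 genes moved from −0.027 to −0.48. Relative to *Actb*, the calls were 10 for the PRC2 accessory list, 18 for the other PRC1 subunits, 6 for PR-DUB, 3 for the erasers and 13 for the targets, against 4, 8, 3, 0 and 5. Taking effects relative to *Actb* lowers those of all transcripts alike. The share of all transcripts called was not computed for this setting, for either centring or for q-values readjusted above the limit of 100 counts. Counts under these settings therefore have no background and say nothing particular of the Polycomb genes. For PR-DUB the count was 8 by the Wald q-values and 8 above the limit of 100, 5 after centring on GC content and 6 after centring on the median of transcripts above that limit, an alternative chosen after seeing the data. It was 1 for the erasers both above the limit and with that centring, and 8 for the targets with that centring. Among the effects that changed sign relative to *Actb*, those of transcripts called under either setting were −0.44 for the main *Jarid2* isoform, −0.22 for *Dcaf7*, −0.029 for *Ogt* and −0.016 for *Scmh1*. Of member transcripts called under neither, the sign also changed for *Ring1* (−0.22), both *Ezh1* isoforms (−0.28 and −0.41) and the second isoforms of *Suz12* (−0.045), *Cbx7* (−0.36) and *Rnf2* (−0.37). Of the 20 calls in the other lists, 8 were still called in the same direction relative to *Actb*, *Dcaf7* was called in the opposite one, and at least 19 were still called under each other alternative. The second *Ezh2* isoform missed the threshold under limma and after centring on GC content. No paired analysis was possible because the deposited columns hold no values of single libraries, and leaving out a replicate could not be run for the same reason. With 2 libraries a group, the intervals rest on few degrees of freedom.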
